A study of Rattus norvegicus with 44 samples.

Results

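The comparison is that of the kidney cortex of wild-type rats at postnatal day 21 (PND21) with the same tissue at PND15. Age and genotype labels chose the libraries: 4 labelled PND15_WT and 3 labelled PND21_WT, of 44 in the series. Genes were kept when they had at least 1 FPKM (fragments per length of gene and depth of library) in 3 or more of the 7 libraries, which left 14115 of 32545 genes, and 10683 genes were at 0 in all 7. The series followed male rats at 4 ages and with 3 genotypes at Xdh, the gene of xanthine dehydrogenase, to study how the kidney matures. WT animals carry no Xdh mutation by their label, no treatment is named, and each library has a number of its own in its title. Heterozygous (Het) animals of the same 2 ages, 4 libraries at each, serve here as other animals of the same age, and the labels do not give the kind of Xdh allele they carry. Which animals were littermates and the hour of collection are not given either, so p-values measure the spread between these libraries.

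Between these ages a rat pup leaves the nest and goes from milk, rich in fat, to solid food, rich in carbohydrate and plant compounds. New nephrons are no longer formed by then, and the tubule cells lengthen, divide less and take on the carriers and enzymes of the adult kidney. The proximal tubule reclaims solutes from the filtrate, secretes organic acids and drugs, and holds much of the body's glutathione chemistry. The ureteric bud, whose Wnt signals call up nephrons in the fetus, becomes the collecting duct.

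The 7 libraries held 14328512 to 18142414 reads counted on genes. Values from PND21 had a larger sum: 638645 to 706491 a library at PND21 against 546480 to 585558 at PND15, a ratio of means of 1.18 (two-sided exact permutation test, p = 0.0571, the smallest that 3 against 4 libraries allow). The share of reads on mitochondrial genes was 7.63% to 9.42% at PND15 and 10.1% to 11.2% at PND21 (exact permutation test, p = 0.0571). The library size that the deposited values imply was 0.958 to 0.982 of the reads counted at PND15 and 0.833 to 0.892 at PND21. A smaller size raises every value of a library, so this scaling enters the larger sum and the parts of it given next. Mitochondrially encoded genes made up 37.9% of the rise of 99940 FPKM in the mean sum of deposited values. The other genes that added most, named after their values were seen, were Gpx3, secreted glutathione peroxidase, with 4591 FPKM, Hba1, an alpha globin, with 2660 FPKM, and Sepp1, the selenium carrier selenoprotein P, with 2508 FPKM. Markers of the cortex were present at both ages: Lrp2, the endocytic receptor megalin, lay between 209 and 288 FPKM in the 7 libraries and Umod of the thick ascending limb between 916 and 1331. Nphs1, nephrin of the podocyte, lay between 15.8 and 24.3 FPKM. Aqp4, a water channel used as a marker of the medulla, lay between 6.77 and 14.1 FPKM, highest in PND15 replicates 3 and 4. The summed level of 18 genes of the inner medulla and thin limb was 984 to 1615 FPKM at PND15 and 1206 to 1346 at PND21. Among the Het libraries PND15_Het replicate 2 stood apart: it had 33.4 FPKM of Fkbp5, a chaperone induced by glucocorticoids, where the other 3 had 7.17 to 8.57, and 111 FPKM of Dnase1, where they had 15.3 to 24.6. It was noticed after the values were seen, and counts of the Het comparison and of the term for title numbers are given with and without it.

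At PND21, 3160 genes differed from PND15 (limma on log2(FPKM + 1), Benjamini-Hochberg adjusted p under 0.05), which is 22.4% of genes tested. Of these, 1860 rose (13.2%) and 1300 fell (9.21%), and the median difference of all genes was 0.01 log2. Without 1 library the count ranged from 2037 (without PND21 replicate 2) to 2811, and the count of falls from 785 to 1165. The balance of rises and falls depended on the scaling. Rescaled so that every column had the same sum, the same libraries gave 5316 genes (37.7%), of which 865 rose (6.13%) and 4451 fell (31.5%), and the median of all genes moved to -0.20 log2. All 1300 falls and 865 of the 1860 rises were called in both. No gene was called in opposite directions, and 23 rises changed sign without being called. Of these, Glud1, glutamate dehydrogenase of the mitochondrion, had a log2 difference of 0.23 as deposited and -0.01 with a common sum, and its call was kept in 0 of 7 fits without 1 library. Changes below are from the deposited values, with the count under a common sum beside each group. A log2 difference of 1 or more was reached by 188 of the rises and 114 of the falls. In 2736 genes (19.4%) every PND21 library was above every PND15 library, and in 2166 (15.3%) every one was below.

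**Figure D1:**
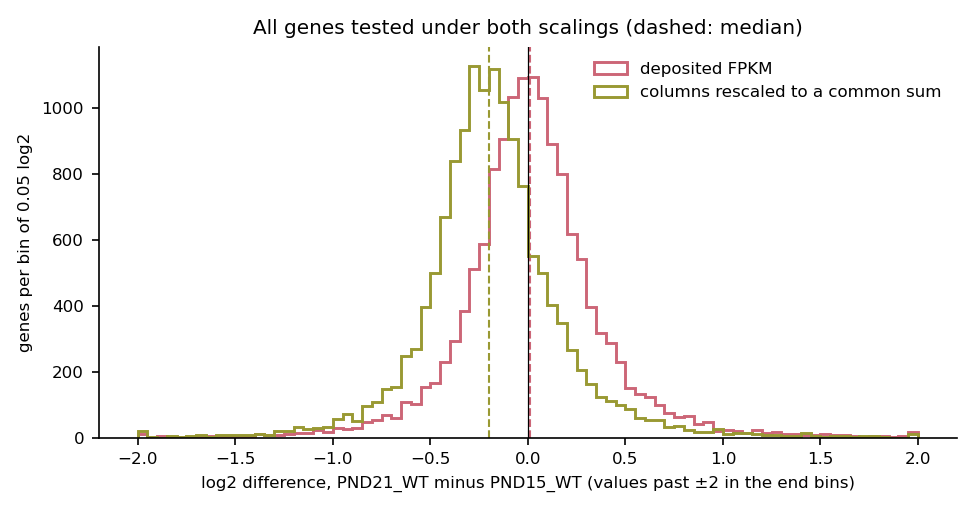
The distribution of the log2 difference between PND21_WT and PND15_WT over the 14115 genes tested, in bins of 0.05 log2, for the deposited FPKM and for columns rescaled to a common sum. The whole distribution shifts from a median of 0.01 to a median of -0.20.

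Most genes of glutathione synthesis and of the NRF2 response that were tested rose. NRF2 is a transcription factor released by oxidants and plant compounds that turns on glutathione synthesis, conjugation and export. Of 35 members tested, 23 rose and none fell, where 13.2% of all genes rose, and the median difference was 0.52 log2. With a common sum 16 rose and 2 fell. Gclc, the subunit that limits the first step of glutathione synthesis (chromosome 8, 85059051 to 85097468 in the table, which names no build), stood at 347, 352, 341 and 289 FPKM at PND15 and 811, 813 and 1328 FPKM at PND21. Every PND21 library was above every PND15 library, and replicate 3 was the highest by far. The rise was 2.96-fold (log2 difference 1.53 ± 0.17 SE, adjusted p = 0.000744) and 1.29 log2 with a common sum. Gclm, the regulatory subunit of the same enzyme, stood at 295, 312, 296 and 266 FPKM at PND15 and 486, 539.6 and 638 FPKM at PND21, without overlap (log2 difference 0.92 ± 0.11 SE, adjusted p = 0.00067). Gss, which makes glutathione in the second step, stood at 115, 118, 108 and 99.7 FPKM at PND15 and 189, 203 and 245 FPKM at PND21 (log2 difference 0.93 ± 0.10 SE, adjusted p = 0.000541). Both ages were apart in all 3 genes of synthesis.

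Of 9 glutathione transferases in the list, which conjugate glutathione to reactive compounds, 7 rose and none fell (5 and 0 with a common sum). Gsta1, Gsta2 and Gsta5 rose 2.61-fold, 2.82-fold and 2.71-fold; as close paralogs they may share reads in such a table. Gsta3, named after its values were seen, stood at 51.8, 71.6, 57.1 and 46.4 FPKM at PND15 and 56.7, 63.0 and 62.1 FPKM at PND21 and was not called (log2 difference 0.11 ± 0.13 SE, adjusted p = 0.587; -0.12 log2 with a common sum). Osgin1, an oxidative stress inhibitor of growth, stood at 27.9, 28.4, 26.5 and 24.5 FPKM at PND15 and 75.5, 92.1 and 92.2 FPKM at PND21 (log2 difference 1.65 ± 0.09 SE, adjusted p = 3.82e-05), with little spread in either group. Me1, which makes NADPH, rose 1.82-fold, and Gstp1, another transferase, 1.43-fold, a call that held in 2 of 7 fits without 1 library and was lost with a common sum. Ggt1, which breaks glutathione down on the brush border, rose 1.54-fold. Nqo1, the quinone reductase, rose 1.51-fold, while Hmox1, heme oxygenase, went from 9.45 ± 0.995 FPKM (SD, n = 4) to 9.49 ± 1.32 (n = 3) (log2 difference 0.00 ± 0.11 SE, adjusted p = 0.989). The factor itself and its repressor did not pass the test: Nfe2l2 went from 72.9 ± 5.15 FPKM (SD, n = 4) to 69.4 ± 2.74 (n = 3) (log2 difference -0.07 ± 0.08 SE, adjusted p = 0.553) and Keap1 from 20.1 ± 0.537 FPKM (SD, n = 4) to 20.6 ± 0.699 (n = 3) (log2 difference 0.04 ± 0.06 SE, adjusted p = 0.68).

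Promoters of members that rose held the core of the antioxidant response element, the site NRF2 is known to bind, in 3 of 21 (14.3%). That share was near the 12.6% of promoters of all genes tested. The letters TGACNNNGC, on either strand, were searched in the 250 bases before the start of each gene in the RefSeq promoter table (build GRCr8, which may not be that of the gene table). They were found in 10.2% of all 27457 promoters, in 12.6% of 9468 promoters of genes tested here, in 5 of 28 members of the list with a promoter and in 3 of the 21 of these that rose. These shares are a description, and a match is not a shown binding site. The other matches of the list, that of Gsta3 among them, lay in members not called as rises, and Gclc held none. The 3 stretches of members that rose are shown on the strand of the gene. The match is in capitals, with 30 bases on each side, so that it can be read in place.
Gclm, chr2:213031933-213032001, plus strand: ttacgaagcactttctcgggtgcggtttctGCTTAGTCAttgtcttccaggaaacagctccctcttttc
Me1, chr8:96540373-96540441, minus strand: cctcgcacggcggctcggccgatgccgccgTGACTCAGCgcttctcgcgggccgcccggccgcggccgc
Gstp1, chr1:210769728-210769796, minus strand: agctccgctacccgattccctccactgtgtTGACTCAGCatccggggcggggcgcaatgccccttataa
The match in Gclm reads on the opposite strand and lies 172 bases before the start, that of Me1 167 and that of Gstp1 61.

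Enzymes that remove superoxide and peroxide rose in 11 of 20 tested members and fell in 1 (9 and 5 with a common sum). Gpx3 went from 7123 ± 298 FPKM (SD, n = 4) to 11714 ± 446 (n = 3) (1.64-fold), Sod2, the mitochondrial superoxide dismutase, rose 1.45-fold, and Msra, which repairs oxidised methionine, 1.58-fold.

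Carriers of bile acids, steroids and organic solutes rose in 11 of 18 tested members and fell in none (9 and 0 with a common sum; median 0.51 log2). Slc51a and Slc51b form the basolateral pair that moves bile acids and steroids out of epithelial cells. Slc51a (chromosome 11, 71533078 to 71547476) stood at 5.05, 4.91, 4.602 and 3.93 FPKM at PND15 and 20.6, 28.4 and 62.9 FPKM at PND21. The 4 PND15 libraries lay close together, while PND21 replicate 3 was far above the others. The rise was 8.07-fold (log2 difference 2.62 ± 0.36 SE, adjusted p = 0.00429; 2.40 with a common sum). Slc51b stood at 12.3, 14.3, 15.5 and 10.04 FPKM at PND15 and 25.5, 22.2 and 44.9 FPKM at PND21, again highest in PND21 replicate 3 (log2 difference 1.13 ± 0.26 SE, adjusted p = 0.022), and its call was kept in 5 of 7 fits without 1 library. Slco1a6 and Slco4c1, organic anion carriers of the tubule, rose 2.36-fold and 2.85-fold. Nr0b2, a repressor induced by the bile acid receptor, went from 0.870 ± 0.126 FPKM (SD, n = 4) to 2.56 ± 0.377 (n = 3) (log2 difference 0.93 ± 0.14 SE, adjusted p = 0.0022), and Nr1h4, that receptor, rose 1.28-fold and lost its call with a common sum (log2 difference 0.12). Slc10a2, which takes bile acids up from the filtrate, went from 1.99 ± 0.269 FPKM (SD, n = 4) to 1.81 ± 0.599 (n = 3) (log2 difference -0.11 ± 0.16 SE, adjusted p = 0.679).

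Carriers of organic anions, cations and urate rose in 17 of 23 and fell in none (15 and 1 with a common sum). Slc22a13, an anion carrier, stood at 15.7, 16.8, 14.7 and 13.3 FPKM at PND15 and 30.8, 31.4 and 32.0 FPKM at PND21 (log2 difference 1.01 ± 0.08 SE, adjusted p = 0.000172), and its 3 PND21 values differed by less than 2 FPKM. Slc22a12, the urate carrier Urat1, rose 1.65-fold and Abcg2, which secretes urate and drugs, 1.51-fold; both were named after their values were seen. Of carriers of glucose, amino acids and phosphate in the proximal tubule, 22 of 36 rose and none fell (14 and 1). Slc6a19, the main carrier of neutral amino acids, stood at 51.1, 46.4, 52.2 and 47.6 FPKM at PND15 and 97.8, 114 and 93.9 FPKM at PND21 (log2 difference 1.03 ± 0.08 SE, adjusted p = 0.000172). Slc9a3, the sodium and proton exchanger, rose 1.74-fold, and Slc7a12, at a low level, 4.24-fold. Slc34a1, the phosphate carrier, rose 1.35-fold and was not called with a common sum.

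Markers of the last segment of the proximal tubule, S3, moved the same way: 13 of 17 rose and none fell (13 and 1 with a common sum), with a median of 0.81 log2. Of 18 S3 genes matched by name, 9 also belong to other lists, so these counts are not separate from theirs. Acsm3 stood at 41.1, 44.3, 31.6 and 27.2 FPKM at PND15 and 103, 122 and 121 FPKM at PND21 (log2 difference 1.67 ± 0.16 SE, adjusted p = 0.000561) and Aadat, which works on kynurenine and aminoadipate, at 402, 434, 418 and 354 FPKM at PND15 and 891, 949.6 and 1307 FPKM at PND21 (log2 difference 1.36 ± 0.14 SE, adjusted p = 0.000378). In bulk tissue, more cells of a segment and more RNA per cell cannot be told apart. Dnase1, a secreted nuclease of the tubule (chromosome 10, 11757682 to 11760620), stood at 17.5, 22.5, 17.1 and 14.3 FPKM at PND15 and 93.1, 128 and 116 FPKM at PND21. No PND21 library came near the PND15 range, and the call was kept in 7 of 7 fits without 1 library (6.29-fold, log2 difference 2.59 ± 0.16 SE, adjusted p = 0.000134). In Het animals Dnase1 had a log2 difference of 2.04, and of 2.67 without PND15_Het replicate 2.

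Enzymes of tryptophan, glycine, proline and lysine breakdown rose. Acmsd, which steers tryptophan away from NAD, stood at 49.1, 42.8, 36.0 and 35.4 FPKM at PND15 and 135, 151 and 211 FPKM at PND21 (log2 difference 1.98 ± 0.17 SE, adjusted p = 0.000348). Gldc, of the glycine cleavage system, rose 4.98-fold, Prodh, proline dehydrogenase, 3.90-fold, and Aass, which starts lysine breakdown, 2.45-fold. In all, 30 of 39 genes of amino acid and creatine metabolism rose and none fell (24 and 2 with a common sum). Prodh lay between 6.62 and 8.95 FPKM in PND15_WT and between 25.5 and 38.7 in PND21_WT, and PND15_Het replicate 2 held 86.7.

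Drug and steroid enzymes rose in 20 of 30 and fell in none (17 and 2), with a median of 0.85 log2. Hsd11b1, which regenerates active glucocorticoid, stood at 5.92, 7.65, 9.12 and 7.88 FPKM at PND15 and 28.9, 29.1 and 39.1 FPKM at PND21 (log2 difference 1.95 ± 0.15 SE, adjusted p = 0.000172). Cyp1a1, induced through the aryl hydrocarbon receptor by plant compounds, stood at 2.21, 3.04, 1.86 and 1.64 FPKM at PND15 and 11.5, 12.4 and 10.2 FPKM at PND21 (log2 difference 1.97 ± 0.15 SE, adjusted p = 0.000149). Cyp4a8, a fatty acid hydroxylase, stood at 1.44, 1.47, 0.644 and 0.613 FPKM at PND15 and 12.9, 11.4 and 35.0 FPKM at PND21 (log2 difference 3.20 ± 0.40 SE, adjusted p = 0.00267), and Akr1c1, a steroid reductase, rose 23.5-fold from a mean of 0.424 FPKM. Both were highest in PND21 replicate 3. Other large rises were Gba3, a cytosolic glucosidase of plant glycosides (4.75-fold), Ppp1r1b (5.87-fold), the carrier Slc22a22 (4.57-fold) and Oosp1 (4.77-fold).

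Of 43 nuclear genes of the respiratory chain, 29 rose and none fell with the deposited scaling (median 0.37 log2), and 8 rose with a common sum (median 0.13). Ndufs1 of complex I stood at 111, 115, 113 and 106 FPKM at PND15 and 149, 166 and 195 FPKM at PND21 (log2 difference 0.60 ± 0.09 SE, adjusted p = 0.00263) and Sdha of complex II at 240.2, 246, 239 and 223 FPKM at PND15 and 315, 328 and 353 FPKM at PND21 (log2 difference 0.48 ± 0.08 SE, adjusted p = 0.00277). Of 11 genes encoded in mitochondria, 8 rose (4 with a common sum). Mt-co1 stood at 18319.9, 22131, 19018 and 19467 FPKM at PND15 and 27121, 29359 and 31741 FPKM at PND21, without overlap (log2 difference 0.58 ± 0.12 SE, adjusted p = 0.00939). The count of nuclear genes that rose was 12 without PND15 replicate 1, 15 without PND15 replicate 4 or PND21 replicate 2, and 11 without PND21 replicate 3, and that of mitochondrial genes 4 without PND15 replicate 1 or 3 and 3 without PND21 replicate 2 or 3. Hnf4a, a factor of the mature proximal tubule, rose 1.58-fold. Ppargc1a, the coactivator of mitochondrial growth, had a log2 difference of 0.32 and of 0.10 with a common sum, where it was not called. The tricarboxylic acid cycle rose in 14 of 20 and fell in 1 (6 and 1 with a common sum; 7 to 9 rises without PND15 replicate 1 or 4 or PND21 replicate 2 or 3).

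Angptl4, a fasting-induced inhibitor of lipoprotein lipase, stood at 16.2, 19.2, 16.1 and 19.99 FPKM at PND15 and 3.61, 4.53 and 1.90 FPKM at PND21 (log2 difference -2.16 ± 0.21 SE, adjusted p = 0.000574). Oxct1 and Bdh1, which burn ketone bodies, rose 2.10-fold and 2.09-fold, and Acadm, of medium-chain fat oxidation, 1.45-fold. Of the 37 genes of fat oxidation and ketone bodies, 10 rose and 6 fell, and 5 rose and 11 fell with a common sum. Without PND21 replicate 2, 6 rose, and without PND15 replicate 1, 2 or 3, 3 fell. Over all genes 13.2% rose and 9.21% fell, and 6.13% rose and 31.5% fell with a common sum. The falls of this list with a common sum were near that last share.

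Of 17 clock genes, 7 rose and 2 fell (7 and 3 with a common sum). Dbp, an output factor of the clock, stood at 54.9, 58.4, 63.5 and 57.2 FPKM at PND15 and 156, 155 and 125 FPKM at PND21 (log2 difference 1.29 ± 0.10 SE, adjusted p = 0.000146), and Nfil3, its counterpart, at 7.33, 6.84, 5.83 and 6.66 FPKM at PND15 and 2.66, 2.81 and 3.33 FPKM at PND21 (log2 difference -0.96 ± 0.11 SE, adjusted p = 0.00054). The hour of collection moves such genes, and its part in the difference was not tested. Of 21 glucocorticoid targets, 11 rose and 1 fell (8 and 3 with a common sum), and 7 rose without PND15 replicate 2 or PND21 replicate 1. In Het animals 2 rose and 1 fell, where 12.2% of all genes rose and 6.68% fell. Without PND15_Het replicate 2, 5 of these targets rose and 2 fell, where 2456 of 14836 genes rose and 1745 fell. Klf15 stood at 23.3, 22.5, 28.1 and 25.3 FPKM at PND15 and 52.4, 63.4 and 46.2 FPKM at PND21 (log2 difference 1.09 ± 0.11 SE, adjusted p = 0.000426) and Fkbp5, named after its values were seen, at 6.92, 7.17, 6.77 and 6.74 FPKM at PND15 and 19.4, 23.6 and 9.62 FPKM at PND21 (log2 difference 1.14 ± 0.26 SE, adjusted p = 0.0229). PND21 replicate 3 lay far below replicates 1 and 2 in Fkbp5. In the growth hormone and IGF list 4 rose and 10 fell of 28 (4 and 14 with a common sum). Ghr, the growth hormone receptor, rose 1.57-fold, while Igfbp2, an IGF-binding protein of young tissue, stood at 72.0, 68.0, 94.2 and 81.8 FPKM at PND15 and 33.8, 35.6 and 37.5 FPKM at PND21 (log2 difference -1.12 ± 0.11 SE, adjusted p = 0.000306).

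The PND21 libraries also differ by the number in the title: PND21_WT replicates 1 and 2 and PND21_Het replicate 1 carry the numbers 100, 109 and 104, the other 4 PND21 libraries 55 to 58, and the labels do not say what the numbers mean. A term for numbers of 100 and above, fitted on the 15 WT and Het libraries, called 66 of 14836 genes (0.445%), 29 higher (0.195%) and 37 lower (0.249%), and 280 without PND15_Het replicate 2, 109 higher and 171 lower. The genes named for this term were chosen after their values were seen. Fmo2, a flavin oxidase, lay between 64.5 and 69.7 FPKM in the 3 libraries and between 28.1 and 31.6 in the 4. Slc51a lay between 18.8 and 28.4 FPKM in the 3 and between 30.7 and 62.9 in the 4 (log2 difference -1.296 ± 0.21 SE, adjusted p = 0.0321), and Slc51b was lower too (-0.92). Gclc, not called for this term, lay between 758 and 813 FPKM in the 3 and between 1060 and 1367 in the 4 (log2 difference -0.70 ± 0.17 SE, adjusted p = 0.101). Enzymes of sterol synthesis, Sqle among them, were lower in the 3: of 29 genes of fat and sterol synthesis 6 were lower and none higher, and 14 were lower without PND15_Het replicate 2. Of 22 glucocorticoid targets 2 were higher in the 3 libraries and none lower (median 0.40 log2), and 6 were higher without PND15_Het replicate 2. Among libraries numbered below 100 alone, WT and Het together, the age difference of Slc51a was 3.11 ± 0.17 SE log2 (adjusted p = 4.87e-06), that of Gclc 1.61 ± 0.16 SE log2 (adjusted p = 6.11e-05) and that of Fkbp5 -0.01 ± 0.34 SE log2 (adjusted p = 0.993). Without PND15_Het replicate 2 these differences were 3.14 ± 0.19 SE log2 (adjusted p = 2.73e-06), 1.70 ± 0.14 SE log2 (adjusted p = 9.06e-06) and 0.34 ± 0.07 SE log2 (adjusted p = 0.00316). The differences of Slc51a and Gclc were larger within these numbers than over the 7 WT libraries, and that of Fkbp5 was smaller.

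**Figure D2:**
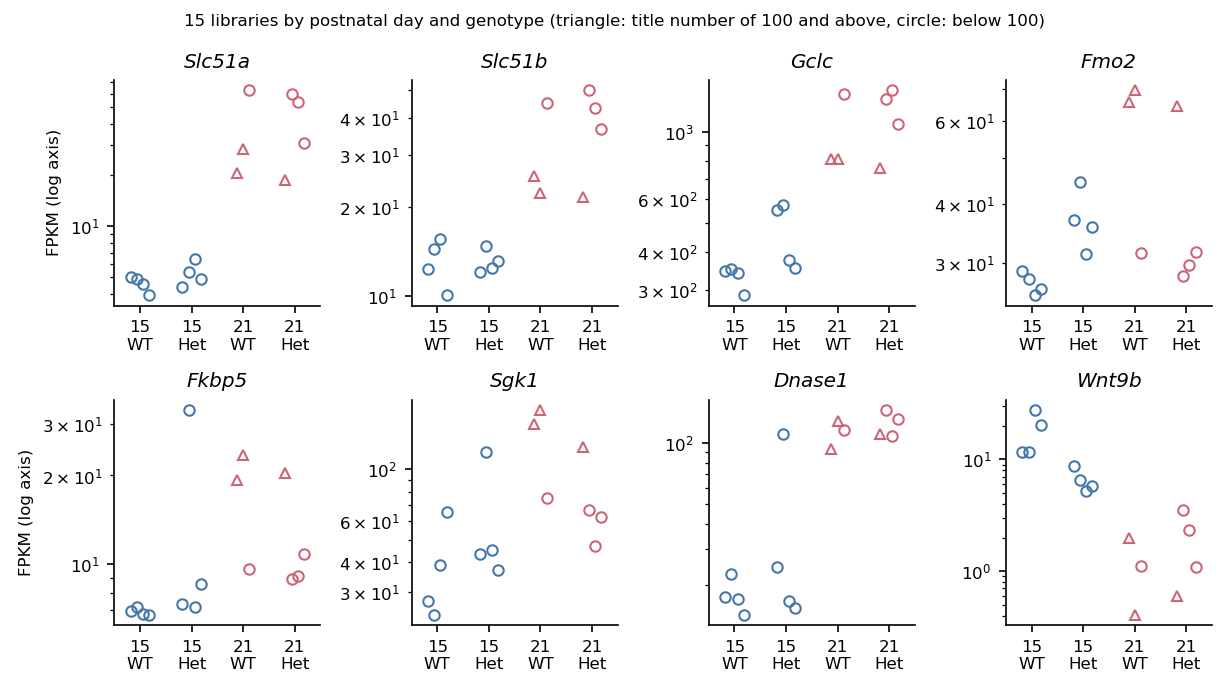
FPKM on a log axis of 8 genes in the 15 libraries, by postnatal day and genotype, 1 symbol per library, with triangles for title numbers of 100 and above and circles for numbers below 100. At PND21 the triangles lie below the circles in Slc51a, Slc51b and Gclc and above them in Fmo2, Fkbp5 and Sgk1.

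Of 18 genes of the distal convoluted and connecting tubule, 9 rose and none fell (3 and 0 with a common sum), among them the magnesium channel Trpm6 (1.59-fold) and the potassium channel Kcnj16 (1.58-fold). Slc12a3, the thiazide-sensitive salt carrier, stood at 75.1, 79.3, 51.6 and 61.5 FPKM at PND15 and 97.3, 116 and 92.8 FPKM at PND21 (log2 difference 0.62 ± 0.15 SE, adjusted p = 0.0208), and its call was lost with a common sum (log2 difference 0.38). Of 20 genes of intercalated cells, which move acid and base, 10 rose and none fell (6 and 0; 6 rose without PND21 replicate 2). Slc26a4, pendrin, stood at 19.4, 21.1, 17.4 and 18.3 FPKM at PND15 and 30.2, 37.3 and 33.9 FPKM at PND21 (log2 difference 0.80 ± 0.09 SE, adjusted p = 0.000605), and the proton pump subunit Atp6v0a4 rose 1.46-fold. In the thick ascending limb 6 of 17 rose (3 without PND15 replicate 4 or any 1 PND21 library; 1 rose and 3 fell with a common sum), and Umod rose 1.31-fold and was not called with a common sum. Of 20 genes of principal cells of the collecting duct, 1 rose and 4 fell (1 and 11). Scnn1a, the alpha subunit of the sodium channel, rose 1.70-fold, and Krt18, a keratin of simple epithelia, fell to 0.471 times its PND15 level. Of 18 genes of the inner medulla and thin limb, 4 rose and 2 fell (2 and 4 with a common sum). Without 1 library 0 to 5 fell. Beside this list, 13.2% of all genes rose and 9.21% fell, and 6.13% rose and 31.5% fell with a common sum. The median of this list was -0.44 log2 in WT and 0.18 in Het.

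**Figure D3:**
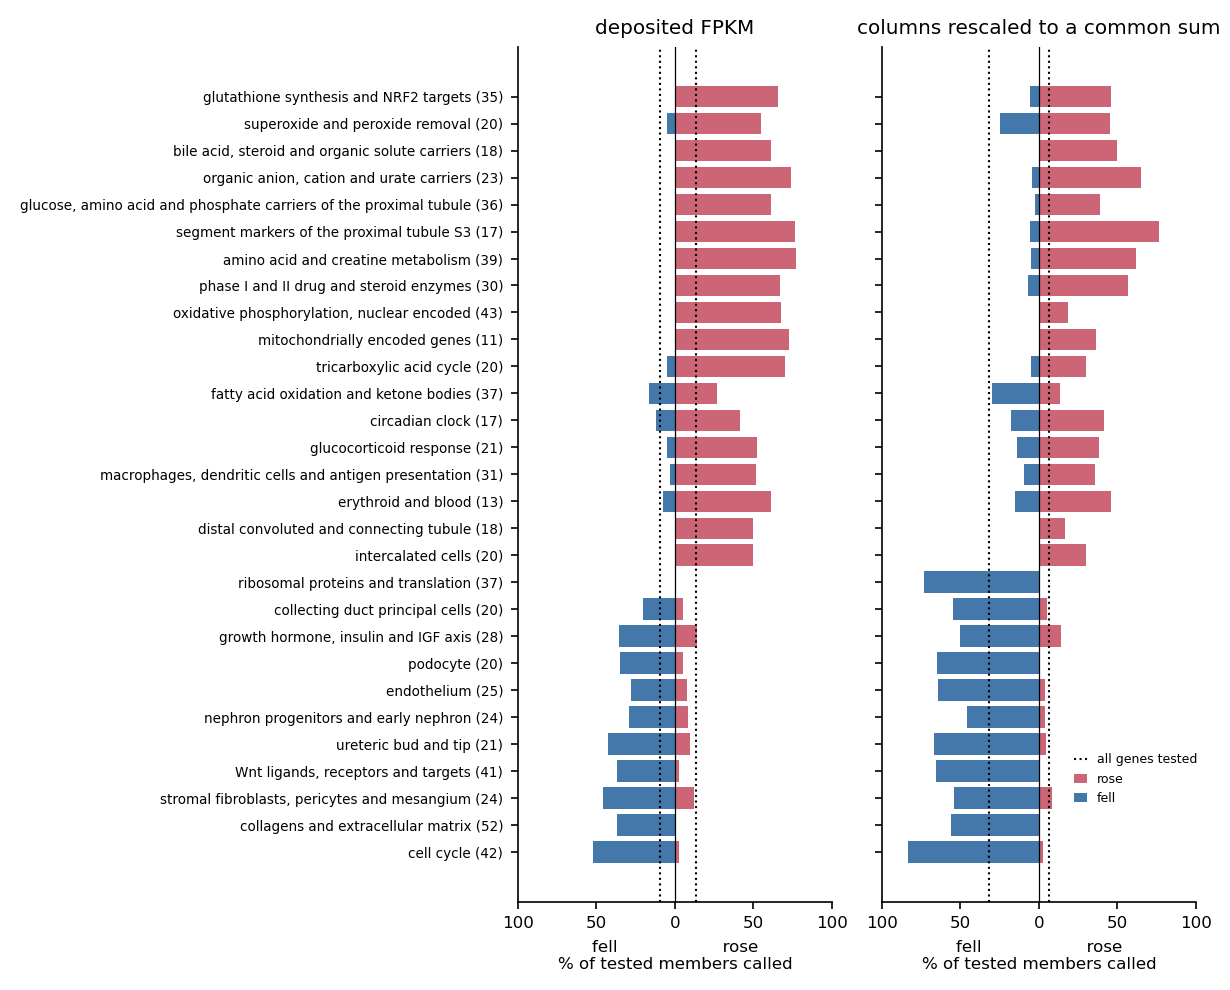
The share of tested members called as risen (right) or fallen (left) in 29 gene lists, with the number of members tested in parentheses, for the deposited FPKM and for columns rescaled to a common sum. Dotted lines give the share of all genes tested, 13.2% and 9.21% on the left and 6.13% and 31.5% on the right.

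Wnt proteins are secreted signals, read by Frizzled receptors and passed on by beta-catenin to Lef and Tcf factors. Of 41 members tested, 1 rose and 15 fell, where 9.21% of all genes fell, with a median of -0.32 log2, and 27 fell and none rose with a common sum. Wnt9b, the signal of the ureteric bud and its stalk (chromosome 10, 91785893 to 91807937), stood at 11.6, 11.5, 27.8 and 20.4 FPKM at PND15 and 1.99, 0.407 and 1.10 FPKM at PND21. Every PND21 library was far below the PND15 range, to 0.0654 times the PND15 mean (log2 difference -3.10 ± 0.39 SE, adjusted p = 0.00295), and PND15 replicates 3 and 4 were above replicates 1 and 2. Wnt11, of the bud tip, stood at 11.4, 10.98, 10.3 and 11.4 FPKM at PND15 and 3.56, 2.04 and 1.51 FPKM at PND21 with hardly any spread at PND15 (log2 difference -1.88 ± 0.18 SE, adjusted p = 0.000306). Wnt4, which forming nephrons use, stood at 6.07, 6.22, 7.40 and 7.25 FPKM at PND15 and 1.88, 1.19 and 1.20 FPKM at PND21 (log2 difference -1.68 ± 0.13 SE, adjusted p = 0.000161). Wnt7b, of the duct, stood at 8.97, 10.4, 19.7 and 17.8 FPKM at PND15 and 7.49, 4.59 and 7.12 FPKM at PND21, with the same 2 PND15 libraries high, and was not called (log2 difference -0.996 ± 0.30 SE, adjusted p = 0.0596).

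Nkd1 and Axin2 are genes that canonical Wnt signals are known to turn on. Nkd1, a feedback inhibitor, stood at 12.5, 13.5, 15.8 and 15.2 FPKM at PND15 and 7.55, 3.38 and 5.26 FPKM at PND21 (log2 difference -1.303 ± 0.21 SE, adjusted p = 0.00428), and Axin2 at 6.84, 6.87, 7.83 and 8.91 FPKM at PND15 and 4.77, 3.22 and 2.19 FPKM at PND21 (log2 difference -1.01 ± 0.19 SE, adjusted p = 0.006). Notum, which strips Wnt proteins of their lipid, fell to 0.173 times its PND15 level, Lef1 to 0.409 times and Tcf7 to 0.468 times. Of the receptors, Fzd2 had a log2 difference of -0.65 and Fzd1, whose call was kept in 4 of 7 fits without 1 library, of -0.26. The 1 rise was Frzb, a secreted antagonist (1.28-fold), which lost its call with a common sum. Without PND15 replicates 3 and 4 the log2 difference of Wnt9b was -2.61 (adjusted p = 0.00748), that of Wnt11 -1.90 and that of Wnt4 -1.57. Axin2, Nkd1 and Lef1 had log2 differences of -0.88, -1.18 and -0.63 in that fit of 5 libraries, where they had -1.01, -1.30 and -0.83 over all 7, and adjusted p of 0.0685, 0.0578 and 0.0892. In that fit 8 of the 41 fell, and 480 of all genes tested fell, where 1300 did with 7 libraries.

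Those 2 PND15 libraries also held more RNA of the urothelium, the lining of the renal pelvis. Upk3a, a plaque protein of that lining, stood at 5.20, 2.42, 11.8 and 11.5 FPKM at PND15 and 0.690, 0.745 and 1.43 FPKM at PND21 (log2 difference -1.98 ± 0.50 SE, adjusted p = 0.0346), and its call was kept in 1 of 7 fits without 1 library. Sprr1a and Sfn, of stratified epithelia, stood at 7.53, 6.37, 19.1 and 16.4 FPKM at PND15 and 2.06, 1.41 and 2.41 FPKM at PND21 and at 10.7, 11.3, 30.1 and 18.6 FPKM at PND15 and 4.30, 2.56 and 5.13 FPKM at PND21. The sum of 6 such genes (Upk1b, Upk2, Upk3a, Krt5, Sprr1a, Sfn), chosen after their values were seen, was 30.6, 24.3, 78.9 and 65.0 FPKM at PND15 and 11.4, 7.19 and 11.4 FPKM at PND21. In Het animals the same sum ran from 6.79 to 59.1 FPKM at PND15 and from 4.20 to 48.8 at PND21, so it overlapped there. The part of renal pelvis or medulla in the dissected tissue in the falls of Wnt9b, Wnt7b, Upk3a, Sprr1a and Sfn was not tested.

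Of 21 ureteric bud genes tested, a list that shares Wnt9b and Wnt11 with the Wnt genes, 9 fell and 2 rose (14 and 1 with a common sum). Upk3a is a member of this list and among the falls, and the tubule carrier Slco4c1 a member and among the rises. Without PND15 replicates 3 and 4, 5 fell and 2 rose. Pax2, a factor of bud and nephron, stood at 29.1, 30.2, 45.6 and 42.3 FPKM at PND15 and 25.6, 19.4 and 20.04 FPKM at PND21 (log2 difference -0.72 ± 0.18 SE, adjusted p = 0.0266). PND15 replicates 3 and 4 were again the highest, and without them the log2 difference was -0.44 (adjusted p = 0.0693). Etv4, a target of Ret signals, fell to 0.349 times its PND15 level, and its log2 difference was -0.71 with all 7 libraries and -0.75 without those 2 (adjusted p = 0.0704). Of 24 genes of nephron progenitors and early nephrons 7 fell and 2 rose (11 and 1), among them Cdh6 (log2 difference -0.62 ± 0.07 SE, adjusted p = 0.000604) and Jag1 (log2 difference -0.48 ± 0.09 SE, adjusted p = 0.00557).

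Of 42 genes of the cell cycle 22 fell and 1 rose (35 and 1 with a common sum), 13 fell without PND21 replicate 3, and all 42 had a median of -0.32 log2. Ccnd2, a D-type cyclin, stood at 35.1, 28.4, 38.1 and 46.3 FPKM at PND15 and 21.0, 16.2 and 18.7 FPKM at PND21 (log2 difference -0.94 ± 0.16 SE, adjusted p = 0.0045) and Mcm4, of the replication helicase, at 14.8, 14.7, 15.3 and 15.5 FPKM at PND15 and 10.8, 12.1 and 9.88 FPKM at PND21 (log2 difference -0.43 ± 0.08 SE, adjusted p = 0.00503). Cdc25b, a phosphatase that starts mitosis, rose 1.90-fold. In Het libraries none of the 42 fell and 2 rose, and without PND15_Het replicate 2, 22 fell and 2 rose. With all 44 libraries in 1 model, 2 fell. Cdkn1c, the growth inhibitor p57, stood at 182, 208, 255 and 235 FPKM at PND15 and 119.9, 65.6 and 72.6 FPKM at PND21 (log2 difference -1.38 ± 0.21 SE, adjusted p = 0.0043).

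Of 52 collagen and matrix genes 19 fell and none rose (29 and 0). Vcan, versican, stood at 6.39, 7.15, 6.81 and 9.57 FPKM at PND15 and 2.65, 2.15 and 1.83 FPKM at PND21 (log2 difference -1.39 ± 0.14 SE, adjusted p = 0.000414), and Mfap2 and Lama1 had log2 differences of -0.95 and -0.85. Col1a1, the main fibrillar collagen, named after its values were seen, stood at 322, 231, 247 and 325 FPKM at PND15 and 245, 236 and 169 FPKM at PND21 (log2 difference -0.38 ± 0.17 SE, adjusted p = 0.149). Of 24 stromal and mural genes 11 fell and 3 rose (13 and 2), with Tcf21, a factor of stroma and podocytes, at 188, 177, 205 and 204 FPKM at PND15 and 105, 78.3 and 109 FPKM at PND21 (log2 difference -0.996 ± 0.12 SE, adjusted p = 0.000736) and Acta2, smooth muscle actin, at 84.1, 69.7, 81.7 and 84.8 FPKM at PND15 and 44.2, 46.6 and 52.3 FPKM at PND21 (log2 difference -0.73 ± 0.09 SE, adjusted p = 0.00095). Cxcl12 and Dpt rose 1.46-fold and 1.45-fold. Podocyte genes fell in 7 of 20 and rose in 1 (13 and 0), and endothelial genes fell in 7 of 25 and rose in 2 (16 and 1; 2 fell without PND21 replicate 2 and 4 without PND21 replicate 3). Tbx3, counted with the latter, fell to 0.344 times its PND15 level.

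Afp, alpha-fetoprotein, stood at 4.39, 6.23, 7.15 and 4.89 FPKM at PND15 and 0.0969, 0.192 and 0.0409 FPKM at PND21 (log2 difference -2.57 ± 0.16 SE, adjusted p = 6.73e-05), after a mean of 122 FPKM at PND0 and 141 at PND5 in WT. Dusp2, a phosphatase of MAP kinases, stood at 21.9, 13.6, 25.7 and 33.3 FPKM at PND15 and 3.21, 2.26 and 3.71 FPKM at PND21 (log2 difference -2.55 ± 0.29 SE, adjusted p = 0.00187) and Rtkn, rhotekin, at 7.36, 5.67, 8.07 and 6.52 FPKM at PND15 and 0.726, 0.654 and 0.856 FPKM at PND21 (log2 difference -2.17 ± 0.13 SE, adjusted p = 5.14e-05). Rtkn also differed widely within groups: it stood at 0.358 FPKM in PND15_Het replicate 2, where the other 3 had 5.15 to 7.40, and at 5.07 in PND21_Het replicate 1, where the other 3 had 0.385 to 0.823. In WT it ranged from 0.625 to 6.79 FPKM at PND0 and from 0.836 to 4.50 at PND5. Its Het log2 difference was -1.11 (adjusted p = 0.164), and -1.72 without PND15_Het replicate 2 (adjusted p = 0.00661). Wfdc8 fell to 0.109 times its PND15 level (log2 difference -2.31), and without PND15 replicates 3 and 4 its log2 difference was -2.06 (adjusted p = 0.0546).

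**Figure D4:**
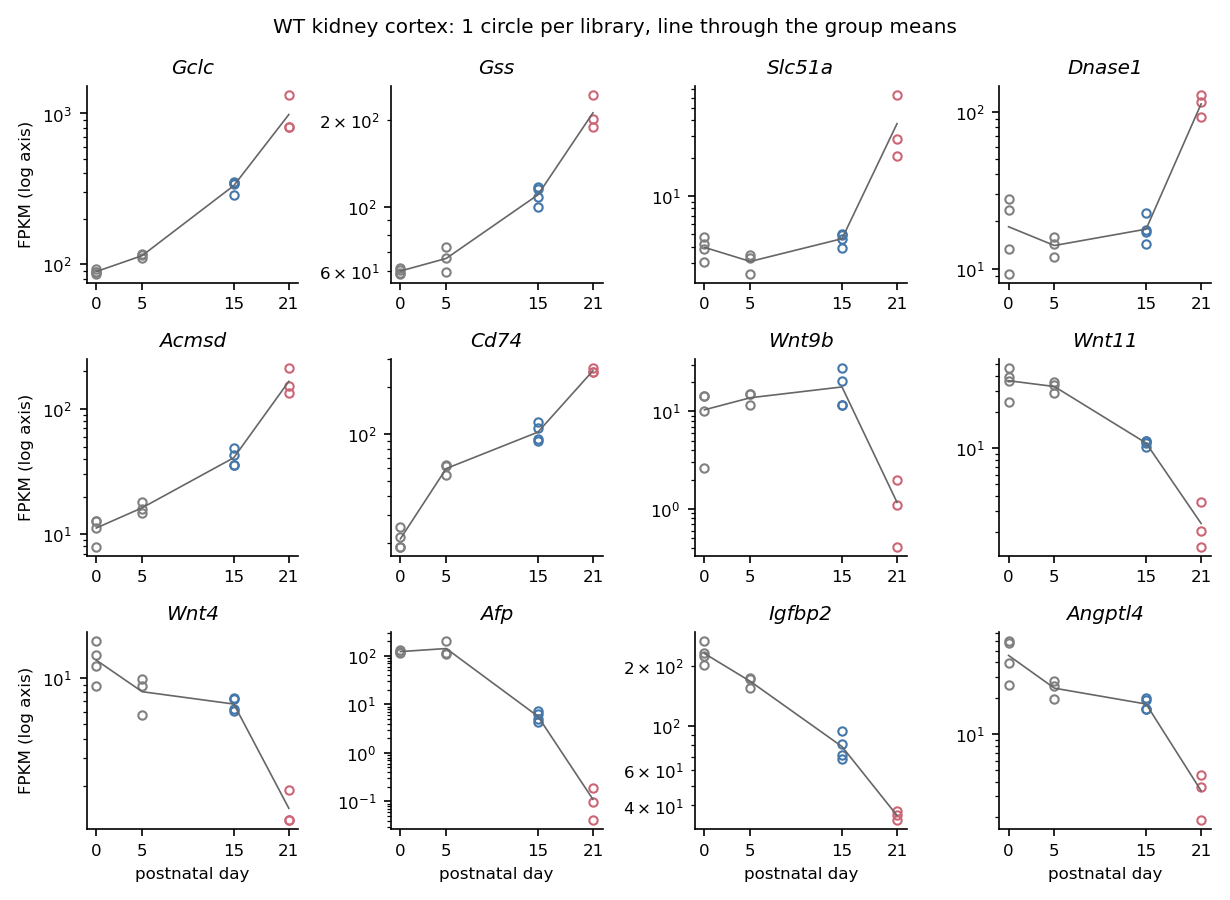
FPKM on a log axis of 12 genes in every WT library at PND0, PND5, PND15 and PND21, 1 circle per library, with a line through the group means. At PND21 Gclc, Gss, Slc51a, Dnase1, Acmsd and Cd74 lie above all PND15 libraries, and Wnt9b, Wnt11, Wnt4, Afp, Igfbp2 and Angptl4 below them.

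The earlier WT ages place these changes. Gclc had means of 89.3, 114, 332 and 984 FPKM at PND0, PND5, PND15 and PND21, a rise at each step. Slc51a had 3.95, 3.06, 4.62 and 37.3 and Dnase1 18.5, 14.03, 17.8 and 112, so both stayed near one level up to PND15. Wnt9b had 10.4, 13.8, 17.9 and 1.17, and Wnt11 36.3, 32.5, 11.02 and 2.37. These steps share the PND15 libraries with the comparison and were not tested against it.

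Of 31 genes of macrophages, dendritic cells and antigen presentation 16 rose and 1 fell (11 and 3 with a common sum; 10 rose without PND21 replicate 2). Cd74, the chaperone of class II molecules, stood at 118, 109, 92.1 and 89.8 FPKM at PND15 and 264, 249.7 and 247 FPKM at PND21 (log2 difference 1.31 ± 0.10 SE, adjusted p = 0.000172) and RT1-Da, a class II chain, at 21.3, 24.5, 21.6 and 17.9 FPKM at PND15 and 47.1, 50.8 and 49.1 FPKM at PND21 (log2 difference 1.17 ± 0.10 SE, adjusted p = 0.000178). Class II chains are alike in sequence and may share reads. Pigr, which carries immunoglobulin A across epithelia, rose 4.17-fold. Csf1r, the receptor of macrophages, went from 10.5 ± 1.08 FPKM (SD, n = 4) to 11.3 ± 0.280 (n = 3) (log2 difference 0.09 ± 0.09 SE, adjusted p = 0.485) and Adgre1 from 4.33 ± 0.301 FPKM (SD, n = 4) to 3.59 ± 0.316 (n = 3) (log2 difference -0.22 ± 0.10 SE, adjusted p = 0.151); both were named after their values were seen.

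Genes of blood and other tissues were checked beside these results. Of 13 erythroid genes 8 rose and 1 fell (6 and 2 with a common sum; 5 rose without PND15 replicate 1, 2 or 4 or PND21 replicate 1 or 3), and their summed level was 2271 to 3533 FPKM at PND15 and 3699 to 9224 at PND21. Hba1 ranged from 2333 to 6314 FPKM at PND21, lowest in replicate 2. Adrenal, skeletal muscle and fat lists held 3, 3 and 13 tested genes, of which 2, 0 and 1 rose and none fell, and with a common sum 0, 0 and 1 rose and 0, 1 and 0 fell. Of 8 liver genes tested 4 rose and 1, Afp, fell (3 and 1 with a common sum), and 2 to 4 rose without 1 library. Of tubular injury genes 1 rose and 6 fell in 22 (0 and 10 with a common sum), and 2 fell without PND15 replicates 3 and 4. In Het libraries 1 of the 22 fell, and 3 without PND15_Het replicate 2. With all 44 libraries in 1 model, 1 fell. Beside these lists, 13.2% of all genes rose and 9.21% fell, and 6.13% rose and 31.5% fell with a common sum. Cdkn1a and Fos fell to 0.420 times and 0.276 times of their PND15 levels. In Het libraries Fos overlapped, with 1.09 to 14.9 FPKM at PND15 and 0.768 to 5.20 at PND21. None of 37 ribosomal protein genes was called as deposited (median -0.08 log2), and 27 fell with a common sum (median -0.31).

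The same ages were compared in Het animals, which share no library with WT. There 2803 of 14836 genes differed (18.9%), with 1812 rises (12.2%) and 991 falls (6.68%). Of the 3160 genes called in WT, 3035 had the same sign in Het, 1074 rises and 453 falls were also called there, and none was called the other way. Without PND15_Het replicate 2, 4201 genes differed, 2456 rises and 1745 falls, 3059 of the 3160 had the same sign, 1360 rises and 803 falls were called in both, and 1 gene, Mir10a, named after its values were seen, was called the other way. Without 1 of the other Het libraries the count ranged from 1678, without PND15_Het replicate 4, to 2722. Across the 14115 genes the log2 differences of WT and Het had a Pearson r of 0.69, and across the genes called in WT of 0.88. Genes are not independent replicates. In all 8 Het libraries Gclc went from 464 ± 114 FPKM at PND15 (SD, n = 4) to 1116 ± 271 at PND21 (n = 4), Slc51a from 5.25 ± 0.842 FPKM at PND15 (SD, n = 4) to 40.8 ± 19.3 at PND21 (n = 4) and Wnt9b from 6.58 ± 1.53 FPKM at PND15 (SD, n = 4) to 1.88 ± 1.303 at PND21 (n = 4). Without PND15_Het replicate 2 the Het log2 differences of Gclc, Slc51a and Wnt9b were 1.37, 2.63 and -1.48. A test of the difference between the genotypes called 0 genes (limma interaction term), with 812 at an unadjusted p under 0.05 (987 without PND15_Het replicate 2), and 0 under each alternative run. Large falls that were smaller in Het included Wnt9b (log2 -3.10 in WT, -1.49 in Het), Dusp2 (-2.55 and -1.33) and Wfdc8 (-2.31 and -0.51). Sprr1a had the opposite sign in Het (-2.06 and 0.62). None of these was shown to differ between the genotypes. At PND15 the mean of Wnt9b was 17.9 FPKM in WT and 6.58 in Het.

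**Figure D5:**
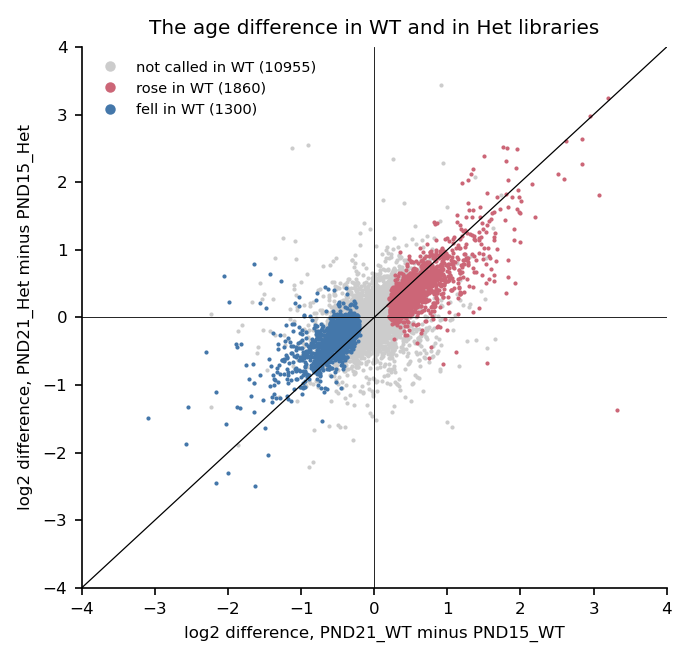
The log2 difference between PND21 and PND15 in WT (horizontal) and in Het (vertical), 1 point per gene, coloured by the call in WT, with the line of equal differences. Most called genes lie in the quadrants of equal sign, 3035 of 3160.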

How the data were processed

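RNA of male rat kidney cortex was sequenced as poly-A libraries, and the deposited table gives FPKM per gene and library, made by the authors. Tools listed per the submitters' processing notes are featureCounts 1.5.0-p3, HISAT2 2.0.5, fastp and StringTie 1.3.3b. The genome build, strand setting and the role of each tool are not given in the sources used here. Low values were whole multiples of 1 read, which gave the reads counted, and the deposited FPKM held a scaling beyond depth: the implied library size was 0.958 to 0.982 of the reads counted at PND15 and 0.833 to 0.892 at PND21. Genes with at least 1 FPKM in 3 of the 7 libraries were tested with limma 3.58.1 (R 4.3.3, trend and robust variance) on log2(FPKM + 1), a scale that understates changes of low genes, with Benjamini-Hochberg adjustment over 14115 genes. The WT against Het difference was an interaction term over 15 libraries. Members and gene lists were chosen with earlier results of these data known. The 45 lists held 1305 entries, of which 1231 matched by name and 1069 were tested. Genes were named by rule: 4 given genes, the 12 largest called rises and falls without overlap, up to 4 called members a list, members of the NRF2, bile acid, Wnt and ureteric bud lists, and genes whose direction turned with the scaling. Some genes the rule takes are not reported here. The fit was tested on simulated reads with known folds. Alternatives were other scalings, filters, pseudocounts, models and left-out libraries.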

Additional observations from a re-analysis of the deposited data

Results flagged for a closer look

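Dixon's criterion was applied to 129 measures of the same 4 PND15_WT libraries, and in 3 of them a library stood apart from the others. Chance flags about 1 in 20 such measures, and measures of the same libraries are not independent. The PND21_WT libraries were not tested in this way. Gclc was 288.8 FPKM in PND15_WT replicate 4, below the 341.3 to 351.9 of the other 3 libraries. Slc7a12 was 1.185 FPKM in PND15_WT replicate 1, above 0.5867 to 0.6145 in the others. Frzb was 12.24 FPKM in PND15_WT replicate 3, below 14.11 to 14.41 in the others.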

How the results depend on the processing

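No paired analysis was possible because the replicate numbers follow accession order only. Against 3160 calls, 1860 rises and 1300 falls, a common sum gave 5316, 865 and 4451. A common sum without mitochondrial genes gave 1045 rises and 3167 falls, one without the 100 highest genes 1210 and 2407, and recovered reads scaled by the reads counted 1063 and 3328. Each of these rescales all genes of a library at once. Other settings stayed near the deposited balance: median ratios gave 1746 rises and 1414 falls and TMM factors 1737 and 1415. The deposited library sizes over reads counted were already close to TMM factors of all 44 libraries. These were 0.892 and 0.891 in PND21_WT replicate 1, and 0.833 and 0.830 in PND21_WT replicate 3. Median ratios and TMM factors could therefore hardly give another balance, and they are no separate check of the deposited scaling. Voom on recovered reads, with the library sizes of the deposited values, gave 2011 and 1459. Without PND15 replicates 3 and 4 together, an alternative chosen after seeing the data, there were 1260 calls, 780 rises and 480 falls, from fewer libraries. Without 1 library, 2037 to 2811 genes were called, 1252 to 1646 rises and 785 to 1165 falls, and 3608 to 4852 with a common sum. Het calls, 2803, became 5325 with a common sum and 1678 to 4201 without 1 Het library, also chosen after seeing the data. The interaction called 0 genes under each alternative run. Of 125 named log2 differences under 22 settings, 173 values lost the call, 18 gained it and 26 changed sign. Those that changed sign belonged to Glud1 (-0.0051 with a common sum) and to 5 genes that were not called: Hmox1 (-0.21 with a common sum, -0.16 and -0.11 without mitochondrial or the 100 highest genes, -0.15 scaled by the reads counted, -0.0102 with median ratios, -0.0116 with TMM factors, -0.0123 with voom, -0.0325 with array weights, and -0.0968 to 0.0734 without 1 library), Keap1 (-0.18, -0.13, -0.0826 and -0.12 under the first 4 scalings), Csf1r (-0.12, -0.0701, -0.026 and -0.0613), Gsta3 (-0.12, -0.063, -0.0157 and -0.0541, and -0.0095 without PND15 replicates 3 and 4) and Aqp4 (0.0092 with a term for title numbers of 100 and above and 0.0681 without PND15 replicates 3 and 4). The medians of 4 of 45 lists changed sign with a common sum, among them fat oxidation and ketone bodies (0.09 to -0.14) and purine genes (0.13 to -0.09). The median of all genes moved from 0.01 to -0.20 under the same rescaling. Where no other cause is named, the cause was not tested. With 3 and 4 libraries a group, small differences of low genes could not be resolved.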

Other observations

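Of 22 genes of purine breakdown and salvage 7 rose and 1 fell, and 4 rose and 5 fell with a common sum. Xdh itself, which makes urate, stood at 17.8, 14.1, 14.2 and 16.9 FPKM at PND15 and 22.3, 24.9 and 25.4 FPKM at PND21 (log2 difference 0.59 ± 0.10 SE, adjusted p = 0.00292). Of 26 genes of epithelial junctions and claudins 3 rose and 10 fell, and 2 rose and 17 fell with a common sum. Of 24 genes of the renin angiotensin system and vasoactive peptides 6 rose and 2 fell (3 rises without PND21 replicate 1), and 4 rose and 11 fell with a common sum. Beside these 3 lists, 13.2% of all genes rose and 9.21% fell, and 6.13% rose and 31.5% fell with a common sum.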
